A study of Gallus gallus with 8 samples.

Results

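The miR-130, miR-301 and miR-454 microRNAs were followed in facial ectoderm of the chick embryo, in the frontonasal ectodermal zone, which patterns the upper jaw and comes to express Sonic hedgehog (SHH). The members were the rows of the deposited table named miR-130, miR-301 or miR-454, with any letter and either arm. The rule found 12 of the 994 features: the 5p and the 3p arm of 6 hairpins, gga-miR-130a, gga-miR-130b, gga-miR-130c, gga-miR-301a, gga-miR-301b and gga-miR-454. Small RNA was sequenced from Hamburger-Hamilton stage 22 embryos (HH22, 72 h of incubation, replicates 1 to 4), taken after SHH expression begins, and from stage 18 embryos (HH18, 48 h, replicates 5 to 8), taken before it. All were normal Rhode Island Red chicks with no treatment, and each of the 4 samples of a stage pooled the tissue of 2 chicks, so a value describes a pool and not a single embryo. The labels do not say whether the pools came from separate egg batches, and the p-values describe the spread between these pools.

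miRNAs of this family are small regulatory RNAs cut from hairpin precursors, and their 3p strands begin with a shared seed, the bases that select target messages. In mammals, members have been shown to repress the TGF-beta signal transducer SMAD4, and miR-130a represses the homeobox genes GAX and HOXA5 in human endothelial cells. Each hairpin gives a 5p and a 3p strand, of which 1 usually persists in Argonaute and the other is mostly degraded. The strand that persists in this family is the 3p strand. In the GRCg7b annotation of RefSeq, used here only for names and gene order, the 6 genes lie in 2 clusters on different chromosomes. MIR130B, MIR454, MIR301A and MIR130A follow each other with 0 genes between them. MIR301B and MIR130C are neighbours within the span of SKA2P1, between the start of that gene and PRR11. The annotation lists gga-mir-301a and gga-mir-301b as synonyms of both MIR301 genes, so the assignment of these 2 names to a locus rests on the gene symbols.

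Levels are given as normalized counts, that is, estimated reads divided by a size factor of the library, as recovered from the deposited log2 values. They are not divided by length, since a read covers a whole mature strand. Cloning efficiency differs between small RNA sequences, so the order of members is an order of reads. The HH22 libraries held 46912793 to 88471588 reads and the HH18 libraries 6276121 to 31318393, so depth and stage cannot be told apart. A floor of 3 reads was set here, and lower counts occur. It stood at 1.01 to 1.96 normalized counts at HH22 and 2.40 to 12.5 at HH18. HH18 replicates 5 and 6, the shallowest libraries, stood apart on the first principal component (24.9 and 33.0, against -15.9 to -9.11 at HH22 and -10.4 and 5.03 in the other HH18 libraries). Summed epithelial miRNAs (8 features of the miR-200, miR-203a and miR-205a list) measured 453494 to 612253 at HH22 and 263830 to 375392 at HH18. Summed mesenchymal miRNAs (5 features) measured 40461 to 44706 at HH22 and 25750 to 29646 at HH18, and summed neural miRNAs (7 features) 8165 to 9723 at HH22 and 16087 to 24334 at HH18, and the sums of these 3 lists did not overlap. Of their tested features, 2 of 8 epithelial ones passed as higher at HH22 and 1 as lower, 3 of 5 mesenchymal ones as higher, and 1 of 4 neural ones as lower (limma adjusted p under 0.05). Of all 356 tested features 14.6% passed in either direction. The neural feature that passed was miR-9-5p (log2 fold change -1.20). The other tested neural features, miR-9-3p (-0.90), miR-124c-3p (-0.55) and miR-124a-3p (0.98), did not pass, and the rest of the 7 were not tested. In bulk tissue, a change in the number of cells of a type and a change in RNA per cell cannot be told apart, and the part of these lists in the results below was not tested. Summed blood miRNAs (5 features of miR-451, miR-144 and miR-142) measured 50.9 to 1366 at HH22 and 31.8 to 10733 at HH18, and both miR-126 arms, an endothelial miRNA, summed to 171 to 617 at HH22 and 123 to 2883 at HH18. HH18 replicate 5 held the highest value of both. Of 11 striated muscle features 6 had no read in any library, and their sums reached 92.0 at HH22 and 38.2 at HH18.

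miR-130b-3p was the most abundant member at both stages. It measured 7336, 9703, 9784 and 8856 normalized counts in HH22 replicates 1 to 4, against 8985, 9956, 11715 and 12569 in HH18 replicates 5 to 8. It held rank 34 by mean level among the 994 features. Its mean was 8920 ± 1136 at HH22 and 10806 ± 1630 at HH18 (SD, n = 4 each), and the stages overlapped (log2 fold change -0.27 with an SE of 0.15, limma adjusted p = 0.285). miR-454-3p, made from the next gene of the same cluster, came second with 4303, 4088, 4047 and 3966 normalized counts in the HH22 libraries, against 4100, 3295, 5143 and 5998 in the HH18 libraries. All HH22 values lay within the HH18 range, and the spread was 144 (SD, n = 4) at HH22 and 1183 (SD, n = 4) at HH18 around means of 4101 and 4634. The log2 fold change of miR-454-3p was -0.14 (SE 0.18), with a limma adjusted p of 0.667.

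miR-130a-3p and miR-301a-3p, from the same cluster, were the next most abundant 3p arms by the mean of all libraries, and both had a higher mean at HH22. miR-130a-3p measured 1956, 1937, 2322 and 1624 normalized counts in HH22 replicates 1 to 4, against 259, 1535, 1635 and 962 in HH18 replicates 5 to 8. The lowest HH22 library lay just below the highest HH18 library, and HH18 replicate 5 stood far below the others. The means were 1960 ± 286 at HH22 and 1098 ± 633 at HH18 (SD, n = 4 each; ratio of means 1.79, log2 fold change 1.13 with an SE of 0.49, limma adjusted p = 0.181). Without HH18 replicate 5, the log2 fold change of miR-130a-3p was 0.53 (limma adjusted p = 0.141). It was 1.39, 1.42 and 1.17 without HH18 replicates 6, 7 and 8. HH18 replicate 5 also held the highest blood and endothelial sums, whose part in this value was not tested. miR-301a-3p measured 1113, 1376, 1244 and 961 normalized counts in the HH22 libraries, against 850, 96.2, 725 and 202 in the HH18 libraries. The stages did not overlap, and the HH18 libraries fell into a higher pair (replicates 5 and 7) and a lower pair (replicates 6 and 8). The means of miR-301a-3p were 1174 ± 178 at HH22 and 468 ± 374 at HH18 (SD, n = 4 each), a ratio of 2.51 (log2 fold change 1.81 with an SE of 0.60, limma adjusted p = 0.0779). It did not pass the threshold of 0.05 over all tested features with the 8 libraries. It passed without HH18 replicate 5 (log2 fold change 2.26, limma adjusted p = 0.0262) and without HH18 replicate 7 (2.18, adjusted p = 0.0423), and without HH18 replicate 6 the value was 1.22 (adjusted p = 0.116).

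The pair of 3p arms from the MIR301B and MIR130C cluster was less abundant by the mean of all libraries, although at HH18 miR-130c-3p (mean 548) stood above miR-301a-3p (468). miR-130c-3p measured 633, 836, 788 and 637 normalized counts in the HH22 libraries, against 732, 12.5, 770 and 676 in the HH18 libraries. HH18 replicate 6 held 3 reads of it, at the floor set here, and the other 7 libraries held 317 to 1888 reads. The log2 fold change was 1.42 with an SE of 1.10 (limma adjusted p = 0.456), and it was -0.014 (adjusted p = 0.982) without HH18 replicate 6, so this library alone set the sign. miR-301b-3p measured 568, 650, 665 and 391 normalized counts in the HH22 libraries, against 471, 531, 492 and 246 in the HH18 libraries. The stages overlapped, with the lowest value of each stage in replicates 4 and 8 (log2 fold change 0.42 with an SE of 0.33, limma adjusted p = 0.469). With scaling by the total reads of all but the 5 most abundant features, its log2 fold change was -0.051.

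**Figure D1:**
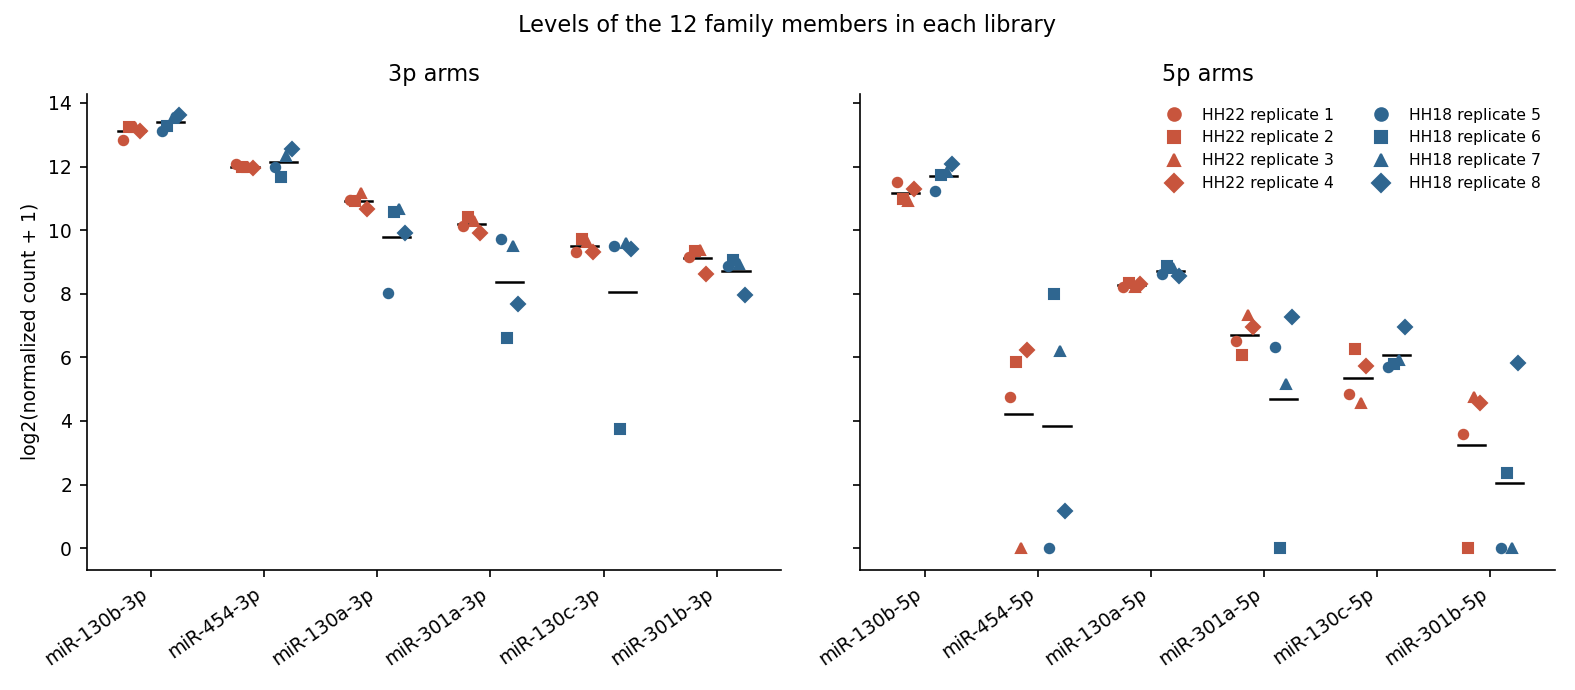
Normalized counts of the 12 members in each library, as log2(normalized count + 1), with 3p arms on the left and 5p arms on the right. Points are libraries (HH22 in red, HH18 in blue) and bars are stage means. miR-130b-3p is the highest member by mean at both stages. Single HH18 libraries lie far below the rest for miR-130a-3p (259 normalized counts in replicate 5) and miR-130c-3p (12.5 in replicate 6). For miR-301a-3p a pair of HH18 libraries lies low (96.2 in replicate 6 and 202 in replicate 8).

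Each 5p arm had a lower mean than the 3p arm of its own hairpin, and only those of miR-130b and miR-130a had at least 111 reads in every library. By the mean of all libraries, miR-130b-5p (2883) still lay above the 3p arms of miR-130a (1529), miR-301a (821), miR-130c (636) and miR-301b (502). miR-130b-5p measured 2915, 2023, 1917 and 2521 normalized counts in the HH22 libraries, against 2383, 3374, 3611 and 4324 in the HH18 libraries. The stages overlapped through HH18 replicate 5, the lowest HH18 library. Its means were 2344 ± 463 at HH22 and 3423 ± 803 at HH18 (SD, n = 4 each; log2 fold change -0.53 with an SE of 0.21, limma adjusted p = 0.138), and without HH18 replicate 5 it passed as lower at HH22 (log2 fold change -0.70, adjusted p = 0.0375). miR-130a-5p measured 293, 323, 296 and 313 normalized counts in the HH22 libraries, against 392, 464, 450 and 374 in the HH18 libraries. Every HH22 library lay below every HH18 library, with means of 306 ± 14.3 at HH22 and 420 ± 43.6 at HH18 (SD, n = 4 each), yet the moderated test did not call it (log2 fold change -0.45 with an SE of 0.27, limma adjusted p = 0.329). The 2 arms of miR-130a thus had log2 fold changes of opposite sign, 1.13 for 3p and -0.45 for 5p.

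The remaining 5p arms were scarcer still, and 3 of these 4 had 0 reads in at least 1 library. miR-301a-5p measured 89.9, 66.5, 159 and 124 normalized counts in the HH22 libraries, against 78.5, 0, 35.2 and 153 in the HH18 libraries, where HH18 replicate 6 had 0 reads (a floor of 12.5 normalized counts). miR-130c-5p measured 27.5, 76.0, 22.7 and 52.2 at HH22, against 50.8, 54.4, 59.1 and 123 at HH18. miR-454-5p measured 25.8, 57.1, 0 and 74.4 at HH22, against 0, 255, 71.9 and 1.27 at HH18, while its 3p partner measured at least 3295 in all 8 libraries. miR-301b-5p measured 11.1, 0, 26.1 and 22.8 at HH22, against 0, 4.18, 0 and 56.0 at HH18. None of these 4 arms passed (limma adjusted p = 0.413 for miR-301a-5p, 0.603 for miR-130c-5p, 0.93 for miR-454-5p and 0.675 for miR-301b-5p), with SEs of 0.80 to 2.05 on the log2 scale.

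Of the 12 members, all of which passed the filter on low values, 0 passed the threshold between the stages by limma, against 14.6% of the 356 tested features. At an unadjusted p under 0.05 there were 3 of 12, against 25.0% of all tested features. By voom, a count-based variant of limma, 0 members passed, with 47 of 356 features called. The stages did not overlap for 2 members, against 20.2% of tested features: miR-301a-3p lay higher at HH22, as did 11.5% of tested features, and miR-130a-5p lower, as did 8.71%. The shares at an unadjusted p and without overlap were near the background. The median log2 fold change of the members was 0.39, beside 0.38 over all tested features; it was 0.77 for the 6 3p arms and -0.04 for the 6 5p arms. In 2 alternatives, total reads replaced the authors' size factors. Scaling by the total reads of all features shifted the median of all tested features by -0.06, and 0 members passed. Scaling by the total reads of all but the 5 most abundant features shifted it by -0.43. Of the members, 4 then passed as lower at HH22: miR-130b-3p (log2 fold change -0.74, limma adjusted p = 0.00431), miR-130b-5p (-1.001, adjusted p = 0.00441), miR-454-3p (-0.61, adjusted p = 0.0199) and miR-130a-5p (-0.92, adjusted p = 0.0455). Under that scaling 71 features passed in all, where the authors' scaling gave 52.

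**Figure D2:**
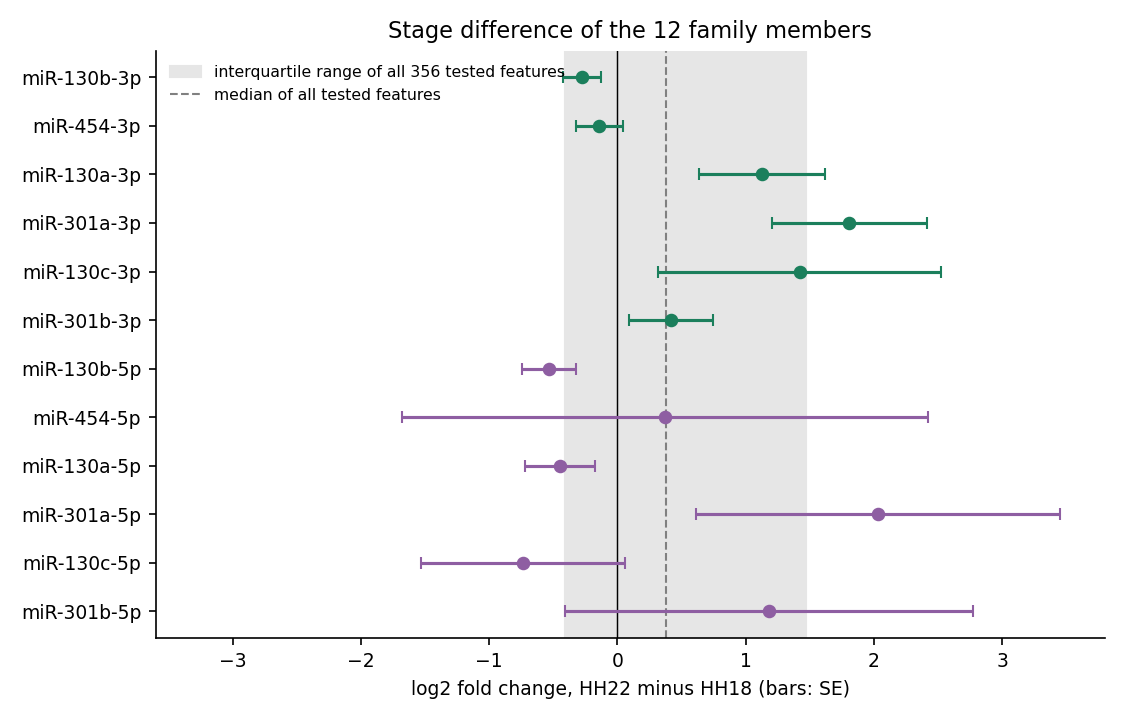
log2 fold change of each member, HH22 minus HH18, with its SE (4 libraries per stage); green points are 3p arms and purple points 5p arms. The grey band is the interquartile range of all 356 tested features and the dashed line their median, 0.38. miR-130b-3p and miR-454-3p lie at -0.27 and -0.14 with short bars, while miR-454-5p has an SE of 2.05.

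Summed over the 6 hairpins, the 3p strands overlapped between the stages. The sum was 15910, 18589, 18851 and 16436 normalized counts in the HH22 libraries, against 15396, 15425, 20480 and 20653 in the HH18 libraries, or 0.0503% to 0.0681% of all reads at HH22 and 0.0523% to 0.0818% at HH18. The means were 17446 ± 1490 at HH22 and 17989 ± 2978 at HH18 (SD, n = 4 each), a log2 difference of -0.03 (SE 0.14). The summed 5p strands averaged 2859 ± 449 at HH22 and 4079 ± 879 at HH18 (SD, n = 4 each; log2 difference -0.50, SE 0.20), with overlapping stages. No p is given for these sums, although an exact permutation test of each was planned. Their members were chosen with earlier results known, as were those of the shares below. The MIR301B and MIR130C cluster supplied 6.26% to 8.0% of the 3p reads at HH22 and 3.52% to 7.81% at HH18 (exact two-sided permutation p = 0.171, unadjusted). The test of this cluster share was not planned and lies outside the member shares counted below.

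Within the 3p reads of the family, the shares of 2 of the 6 members did not overlap between the stages. By level, 20.2% of all tested features did not overlap. Shares were not computed outside the family, so this count has no background of its own kind. A share of 1 member in these reads does not depend on how libraries are scaled, but it can depend on how reads were split between letters. miR-130b-3p made up 46.1%, 52.2%, 51.9% and 53.9% of the 3p reads in the HH22 libraries, against 58.4%, 64.5%, 57.2% and 60.9% in the HH18 libraries. The stages did not overlap, and the 95% Wilson intervals reached at most 1.54 percentage points to either side, counting error only. The mean share was 51.0% ± 3.39 at HH22 and 60.2% ± 3.25 at HH18 (SD, n = 4 each), a difference of -9.21 percentage points (exact two-sided permutation p = 0.0286, the lowest value possible with 4 libraries a stage). miR-301a-3p took 7.00%, 7.40%, 6.60% and 5.85% in the HH22 libraries, against 5.52%, 0.623%, 3.54% and 0.98% in the HH18 libraries, with intervals of at most 0.548 points to either side. Its share did not overlap either, at 6.71% ± 0.663 at HH22 and 2.67% ± 2.30 at HH18 (SD, n = 4 each; exact two-sided permutation p = 0.0286). miR-130a-3p took 12.3%, 10.4%, 12.3% and 9.88% in the HH22 libraries, against 1.68%, 9.95%, 7.98% and 4.66% in the HH18 libraries. HH18 replicate 6 lay just above HH22 replicate 4, and the test gave an exact two-sided permutation p of 0.0571. The shares of miR-454-3p (23.7% ± 2.54 at HH22 and 25.5% ± 3.22 at HH18, SD, n = 4 each), miR-130c-3p and miR-301b-3p overlapped (exact permutation p = 0.429, 0.314 and 0.2).

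Shares of 1 total are tied to each other, and 12 of them were compared (6 per arm), and the exact p-values are unadjusted. Adjusted within an arm, none of the 12 passed 0.05. A pass would have needed several of the 6 shares of an arm at the lowest possible exact permutation p, 0.0286, so 1 share alone could not pass. Left with 3 libraries in a stage the exact test cannot go below 0.0571. Leaving out each library in turn kept the difference of miR-130b-3p between -10.2 and -7.58 percentage points and that of miR-301a-3p between 3.37 and 5.00. Among the 5 other 3p arms, with miR-130b-3p set aside, miR-454-3p took 50.2%, 46.0%, 44.6% and 52.3% of the reads in the HH22 libraries, against 64.0%, 60.2%, 58.7% and 74.2% in the HH18 libraries. These values did not overlap (difference -15.98 percentage points, exact two-sided permutation p = 0.0286, unadjusted). They belong to a further set of shares (5 per arm), outside the 12 counted above. Over all 6 3p arms the share of miR-454-3p overlapped, with a difference of -1.88 points (exact two-sided permutation p = 0.429). miR-301a-3p took 13.0%, 15.5%, 13.7% and 12.7% of these reads at HH22, against 13.3%, 1.76%, 8.27% and 2.50% at HH18, and overlapped through HH18 replicate 5 (exact two-sided permutation p = 0.0857). In the 5p reads, miR-130b-5p made up 81.6% ± 3.49 at HH22 and 83.7% ± 2.36 at HH18 (SD, n = 4 each), and none of the 6 shares separated the stages (lowest exact permutation p = 0.171).

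**Figure D3:**
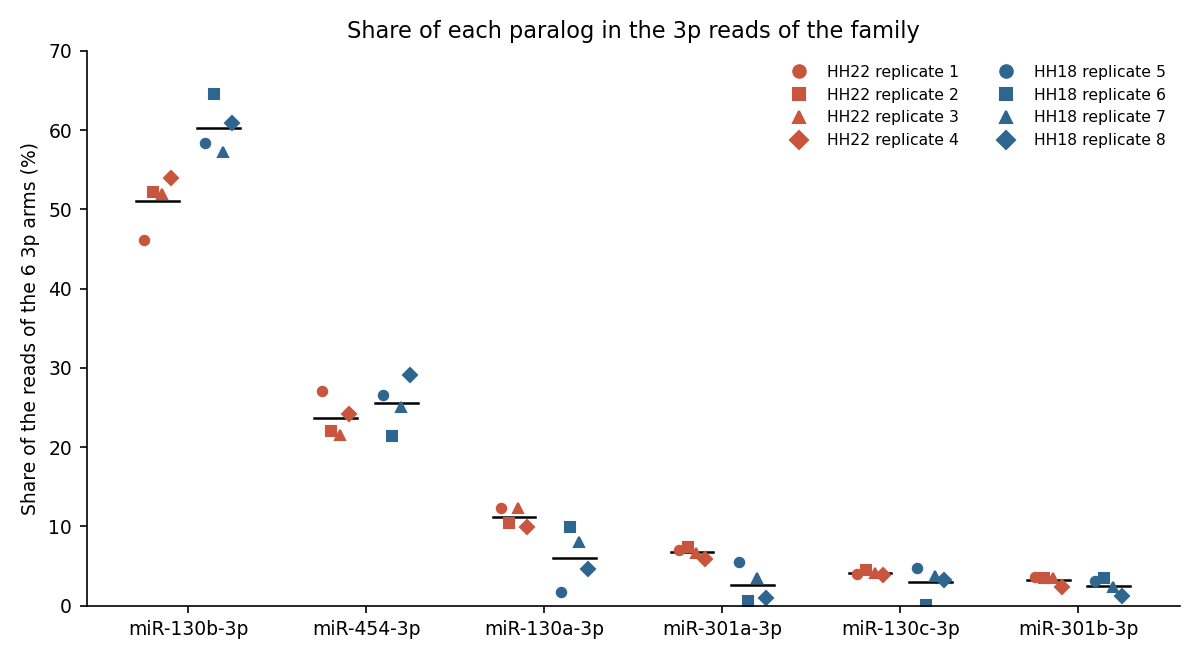
Share of each paralog in the reads of the 6 3p arms of the family, in percent, for each library; bars are stage means. miR-130b-3p lies between 46.1% and 53.9% in the HH22 libraries and between 57.2% and 64.5% in the HH18 libraries, and miR-301a-3p between 5.85% and 7.40% at HH22 and between 0.623% and 5.52% at HH18.

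Paralogs of such similar strands can share reads in the authors' estimation step. No 2 of the 12 members had the same reads in every library, but an uneven split of shared reads would also give unlike counts. Sums by miRNA number, chosen after the values were seen, do not depend on how reads were split between letters. miR-301a-3p and miR-301b-3p together measured 1681, 2026, 1909 and 1352 normalized counts in the HH22 libraries, against 1321, 627, 1217 and 448 in the HH18 libraries. The stages did not overlap, by a narrow margin between HH22 replicate 4 and HH18 replicate 5, and the log2 difference was 1.07 (SE 0.40). The 3 miR-130-3p arms together averaged 11603 ± 1351 at HH22 and 12452 ± 2073 at HH18 (SD, n = 4 each; log2 difference -0.09, SE 0.15). As shares of the 3p reads, both sums overlapped between the stages. The miR-301-3p sum was 1352 of 16436 normalized counts in HH22 replicate 4, against 1321 of 15396 in HH18 replicate 5. The miR-130-3p sum was 12894.5 of 18851 in HH22 replicate 3, against 9976 of 15396 in HH18 replicate 5. The separate shares of miR-130b-3p and miR-301a-3p can thus depend on the split between letters. The pair of miR-130a-3p and miR-130c-3p, also chosen after the values were seen, leaves out miR-130b-3p and can depend on the split between letters. Together they gave 2589, 2772, 3110 and 2261 at HH22, against 990, 1547, 2405 and 1638 at HH18. These overlapped, with HH18 replicate 5 lowest and HH18 replicate 6 near HH18 replicate 8.

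The 3p strand outnumbered the 5p strand in every library for miR-130b, miR-454, miR-301a and miR-301b, and in 7 of 8 libraries for miR-130a and miR-130c. Over all 74 hairpins with both arms tested, 55.4% had more 3p than 5p on average. The 5p strand took 28.4%, 17.3%, 16.4% and 22.2% of miR-130b reads in the HH22 libraries, against 21.0%, 25.3%, 23.6% and 25.6% in the HH18 libraries, with Wilson intervals of at most 1.51 points to either side. These overlapped. For miR-454 it took at most 7.18% in any library and averaged 1.55% over the 8.

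The arm ratio of miR-130a did not overlap between the stages. Its 5p strand took 13.0%, 14.3%, 11.3% and 16.1% of the reads in the HH22 libraries, against 60.3%, 23.2%, 21.6% and 28.0% in the HH18 libraries, with 95% Wilson intervals of at most 5.67 points to either side. In HH18 replicate 5 the order of the arms was turned, with 170 reads of miR-130a-5p and 112 of miR-130a-3p. The log2 ratio of 5p over 3p averaged -2.66 ± 0.25 at HH22 and -1.09 ± 1.14 at HH18 (SD, n = 4 each), a difference of -1.58 (SE 0.59) that did not pass over the 74 hairpins (limma adjusted p = 0.228, unadjusted p = 0.0247). Without HH18 replicate 5 the difference was -1.02 (limma adjusted p = 0.185). Of the 6 member hairpins 0 passed, against 1.35% of all hairpins tested (the exception was miR-1677, outside the family), 1 had an unadjusted p under 0.05, against 16.2%, and 1 did not overlap between the stages, against 12.2%.

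The log2 arm ratio of miR-130b had an SD of 0.47 at HH22 and 0.17 at HH18 (n = 4 each), whereas the other hairpins had larger SDs at HH18 than at HH22. For miR-130c the 5p strand took 4.16%, 8.33%, 2.81% and 7.57% of the reads at HH22, against 6.49%, 81.2%, 7.13% and 15.4% at HH18. The high value in HH18 replicate 6 rested on 13 reads of 5p and 3 of 3p, with a Wilson interval of 57.0% to 93.4%. For miR-301a it took 7.47%, 4.61%, 11.3% and 11.4% at HH22, against 8.46%, 0%, 4.63% and 43.0% at HH18, where HH18 replicate 6 held 23 reads of 3p and 0 of 5p. HH18 replicate 8 had the highest 5p share of both miR-301 hairpins, 43.0% for miR-301a and 18.6% for miR-301b, together with the lowest miR-301b-3p level of all libraries. The differences in log2 arm ratio between the stages were 0.22 (SE 1.19) for miR-301a, 0.77 (SE 1.77) for miR-301b and 0.51 (SE 2.01) for miR-454. The sign turned for miR-301a and miR-454 when certain single libraries were left out, and for miR-301a and miR-301b when 10 was added in place of 1.

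**Figure D4:**
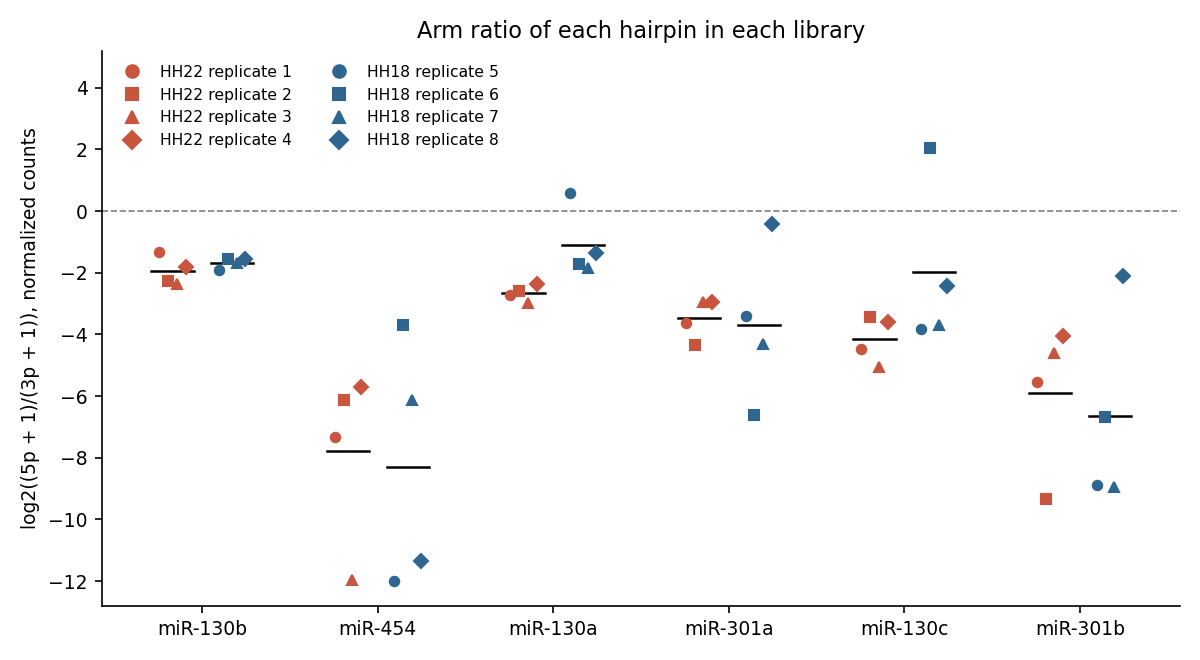
log2 ratio of 5p over 3p normalized counts, each with 1 added, for the 6 hairpins in each library; bars are stage means and the dashed line marks equal arms. The miR-130a ratios lie between -2.97 and -2.37 in the HH22 libraries and between -1.86 and 0.60 in the HH18 libraries, and the miR-130c ratio of HH18 replicate 6 is at 2.03.

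Features with a profile like that of an abundant member were sought among 172 tested features outside the family that averaged 100 normalized counts or more, by the root mean square difference of centred log2 values over the 8 libraries. Closest to miR-130b-3p were miR-7 (0.135), miR-20b-5p (0.204) and miR-17-5p (0.212), where the median candidate stood at 0.577. Closest to miR-454-3p were miR-146c-5p (0.135), miR-221-5p (0.178) and miR-99a-5p (0.192). Closest to miR-130b-5p were miR-1663-3p (0.253), miR-1552-5p (0.288) and miR-221-5p (0.315), less near than for either 3p arm. All share the libraries and their scaling, and the values describe likeness only. By this measure 2 features that both vary little lie close, whatever their direction. The log2 fold change of miR-130b-3p was -0.27, beside -0.26 for miR-7, 0.07 for miR-20b-5p and -0.04 for miR-17-5p.

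Other miRNAs are known whose seeds overlap that of this family at a shifted position: miR-148a-3p, and miR-19a-3p and miR-19b-3p of the miR-17/92 cluster. Of these 3, 1 passed as higher at HH22 with the authors' scaling. Values under other scalings are not given for these 3. miR-148a-3p measured 372584 ± 19404 normalized counts at HH22 and 225385 ± 19282 at HH18 (SD, n = 4 each; log2 fold change 0.73 with an SE of 0.10, limma adjusted p = 0.000911), without overlap. These levels were far above the summed 3p arms of the family, at 17446 at HH22 and 17989 at HH18. miR-19a-3p and miR-19b-3p were scarce, with 84.4 ± 42.3 and 208 ± 42.0 at HH22, against 79.6 ± 34.7 and 204 ± 56.6 at HH18 (SD, n = 4 each), and did not pass (limma adjusted p = 0.985 and 0.951).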

How the data were processed

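The deposited table holds log2 values for each miRNA and library, and how the authors made them is not given in the sources used here beyond bcl2fastq, cutadapt 1.8.1 and kallisto 0.44.0, per the submitters' processing notes; per the labels' protocols, RNA came from a miRNeasy extraction and libraries from a TruSeq kit for small RNA. Every library shares the lowest value, 8.52. Inverting a closed-form variance-stabilizing transformation turned 100% of the values above 0 into whole multiples of 1 step per library (tolerance 0.001), and these multiples are called reads. The step matched the inverse of a size factor computed as a median of ratios (200 features, those read in every library). A read is thus an estimated count, and intervals and floors (3 reads) cover counting error only.

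The test took the 356 features that reached a normalized count of 1 in 4 or more libraries, on log2(normalized count + 1), HH22 minus HH18, with limma-trend (limma 3.58.1, R 4.3.3), two-sided, with Benjamini-Hochberg adjustment over all of them at 0.05. Fold changes refer to that scale and average logs over libraries. They can lie on either side of the ratio of means, for scarce features and also where 1 or more libraries were low. For example, miR-130c-3p had a ratio of means of 1.32 (HH22 over HH18, linear scale). Its log2 fold change was 1.42, which is more than a doubling and so lies well above that ratio. Arm ratios were fitted the same way over 74 hairpins. Shares of members were compared by exact permutation (scipy 1.17.1). Figures were drawn with matplotlib 3.10.9. The procedure was tested on simulated counts, drawn with the same spread setting for every feature and library. That test does not cover drops in single libraries, such as miR-130c-3p in HH18 replicate 6. The members, lists and tests were chosen with earlier results of these data known. Named are all members, the 3 nearest profiles of each of the 3 most abundant members, 3 miRNAs with a shifted seed, and sums of 6 marker lists. An adjustment of the share tests over the members alone, though planned, is not printed as values. All 8 columns were matched to samples by name. No mature sequences were used here.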

Additional observations from a re-analysis of the deposited data

Results flagged for a closer look

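In each stage of 4 libraries the highest or lowest value was set against the others by its gap over the range (Dixon's critical value at the 95% level), which chance exceeds in about 1 of 20 groups. Of 82 groups 6 exceeded it, and several share the same reads. HH18 replicate 6 held 12.5 normalized counts of miR-130c-3p, against 676 to 770 in the other HH18 libraries. HH18 replicate 8 held 123 of miR-130c-5p, against 50.8 to 59.1 in the other HH18 libraries. HH18 replicate 8 also held 56.0 of miR-301b-5p, against 0 to 4.18, which made 1.11% of the 5p reads of the family, against 0% to 0.101%. The sum of both arms, miR-301b-5p and miR-130c-5p, was 179 in that library, against 50.8 to 59.1 in the others. In HH22 replicate 4 miR-301b-3p took 2.38% of the 3p reads, against 3.50% to 3.57% in the other HH22 libraries. The parts of depth, cell composition and the estimation step in these values were not tested.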

How the results depend on the processing

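No paired analysis was run, since the labels name no pairs and the sample numbers 1 to 8 are all different. Whether pools of the 2 stages shared a batch is not stated. The number of members past the threshold was 0 with the authors' scaling and all libraries. It was 4 with scaling by the total reads of all but the 5 most abundant features (71 of 355 features in all). That setting changed both the method of scaling and the features used. The number was 3 without HH18 replicates 5 and 6 together (53 of 342, with miR-130b-5p and miR-454-3p lower and miR-301a-3p higher at HH22). It ranged from 0 to 2 with single libraries left out: 2 without HH18 replicate 5 (55 of 349), 1 without HH18 replicate 7 (66 of 334) and 0 without any other. The number of member hairpins with a changed arm ratio was 0 in the 15 alternatives run. With scaling by the total reads of all but the 5 most abundant features, the log2 difference of the summed 3p arms was -0.50. It was -0.24 without HH18 replicates 5 and 6, and -0.10 to 0.04 with single libraries left out. The summed 5p arms had -0.96 under that scaling and -0.65 to -0.39 with single libraries left out.

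With the most abundant member of the arm set aside, the differences in share were 7.27 percentage points for miR-301a-3p, -15.98 for miR-454-3p, -5.35 for miR-130a-5p, -2.42 for miR-130c-5p, 10.8 for miR-301a-5p, 0.777 for miR-301b-5p and -3.81 for miR-454-5p. Over all 6 arms they were 4.05, -1.88, 0.232, -0.122, 2.32, 0.233 and -0.616 in the same order, so that of miR-130a-5p turned its sign.

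Signs turned in uncalled values. miR-130c-3p had -0.014 without HH18 replicate 6, with 1.93 at the other end of the single-library range, and -0.0072 without HH18 replicates 5 and 6. miR-301b-3p had -0.051 with scaling by the total reads of all but the 5 most abundant features. miR-454-5p had -0.068 with 10 added, -0.074 on the deposited values, -0.12 by voom, and -0.18 and -0.31 without HH22 replicates 2 and 4, and -0.91 and -0.52 without HH18 replicates 5 and 8 (highest 1.77). The arm ratio of miR-301a had -0.58 with 10 added, -0.10 thinned to 6276121 reads, -0.75 without HH18 replicate 6 (highest 1.32) and -1.10 without HH18 replicates 5 and 6. That of miR-301b had -0.052 with 10 added and -0.36 without HH18 replicates 5 and 6. That of miR-454 had -0.04 and -0.18 without HH22 replicates 2 and 4, and -0.73 and -0.51 without HH18 replicates 5 and 8 (highest 2.05). The cause was not tested. Members at or under 3 reads were miR-301b-5p in 4 libraries, miR-454-5p in 3, and miR-301a-5p and miR-130c-3p in 1 each. Thinned to equal depth, the SE of miR-454-5p was 1.43, against 2.05 unthinned. The 2 SEs are not on a like scale, since the added 1 weighs more on the smaller thinned counts. With 10 added to unthinned counts that SE was 1.13.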
